A study of Saccharomyces cerevisiae with 4 samples.

Results

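Transcripts of 10 genes for antioxidant enzymes were examined in dormant spores of Saccharomyces cerevisiae, of 7132 features listed in the deposited table. The genes were chosen by name, as SOD1, SOD2, CTT1, GRX1, GRX2, TRX2, TSA1, TSA2, GPX1 and GPX2. All 10 had reads in every library, and all 10 were among the 6140 genes kept after removal of low counts. The tested spores were red (a) spores, in 2 replicates, and they were compared with non-red (α) spores, also in 2 replicates. Every library came from an SK1-background diploid in which the copper-inducible CUP1 promoter drives IME1, the master regulator of entry into meiosis, at both copies. The diploid also carries mCherry, under the GPD1 promoter, and hygromycin resistance (hph) at MATa, so that only spores inheriting that allele receive the cassette. Sporulation was induced with copper for 7 days in all groups, spores were freed enzymatically and sorted by mCherry fluorescence, and 100 ng of total RNA entered each library. The replicate number marks an independent round (run) of sporulation and sorting, so replicate 2 and replicate 1 were also compared with each other. By their strain labels, non-red replicate 1 is MATa and the other 3 libraries are MATα, which goes against the colors. Mating type was therefore taken from spore color, as the study did.

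Cells living on oxygen produce superoxide and peroxides, which antioxidant enzymes remove in relays. Superoxide dismutases turn superoxide into hydrogen peroxide, and catalases, peroxiredoxins and glutathione peroxidases then reduce the peroxide. Thioredoxins and glutaredoxins are small proteins that pass electrons to such enzymes and repair oxidized thiols. In budding yeast many of these genes are induced by the transcription factors Yap1, which senses peroxide, and Msn2 and Msn4, which respond to general stress and to starvation.

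The libraries held between 25493760 and 45697828 reads, with both replicate 2 libraries (27468051 in a spores and 25493760 in α spores) shallower than both replicate 1 libraries (35937755 in a spores and 45697828 in α spores). At these depths 3 reads, used as the limit of detection, equal between 0.0680 and 0.116 CPM (normalized counts per 1000000 reads), which covers counting error only. The label check gave 2415 and 1989 CPM of hph in a spores, in replicates 2 and 1, against 37.7 and 98.6 CPM in α spores. Reads on mCherry numbered 14452 and 7814 in a spores, against 0 and 552 in α spores. Of 6 late sporulation markers, SPS100, a spore wall maturation gene, was abundant, with 2151 to 3238 CPM over the 4 libraries. DIT2, a gene of dityrosine synthesis for the spore wall, had 3.50 to 5.85 CPM, and all 6 markers had reads in every library. Other than for SPS100, the highest value of these markers was 62.2 CPM, for SPR1 in a spores of replicate 2. The 6 markers of dividing cells summed to 772 CPM in a spores and 566 CPM in α spores of replicate 2, against 840 and 878 CPM in replicate 1. Singly they ranged from 17.6 CPM (CLN2) to 306 CPM (PIR1). CTS1, PIR1 and HTB2 stood above the late sporulation markers other than SPS100 in every library. In bulk RNA, fewer cells of a type and less RNA per cell cannot be told apart.

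The promoter windows of a few members are shown first because the known regulators bind short motifs. Each window is the 300 bases before the start codon in the R64 reference genome, read 5′ to 3′ on the gene's strand. Capitals mark matches on either strand to a Yap1 motif, TTACTAA. They also mark its variant TGACTAA. The stress response element of Msn2 and Msn4, AGGGG, is in capitals too. Motifs on the minus strand of the gene appear as their reverse complements. SOD1 is the most abundant member per coding length, and CTT1 has the largest difference between replicates. GRX2 holds AGGGG more than once, and TRX2 has a pair of Yap1 motifs and no AGGGG. TSA2 is one of the members that did not pass the test between replicates.
SOD1, chrX:623015-623314, minus strand: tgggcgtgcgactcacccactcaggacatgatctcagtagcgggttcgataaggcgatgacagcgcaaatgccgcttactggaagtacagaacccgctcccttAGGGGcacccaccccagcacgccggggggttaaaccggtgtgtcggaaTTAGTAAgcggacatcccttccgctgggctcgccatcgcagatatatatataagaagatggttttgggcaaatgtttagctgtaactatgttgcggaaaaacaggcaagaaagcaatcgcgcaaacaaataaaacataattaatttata
CTT1, chrVII:654334-654633, plus strand: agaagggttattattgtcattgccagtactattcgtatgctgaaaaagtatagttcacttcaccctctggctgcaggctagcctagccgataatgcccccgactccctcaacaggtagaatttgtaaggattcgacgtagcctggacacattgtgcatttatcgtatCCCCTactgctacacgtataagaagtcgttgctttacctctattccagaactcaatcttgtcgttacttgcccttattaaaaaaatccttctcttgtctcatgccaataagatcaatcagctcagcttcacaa
GRX2, chrIV:1470717-1471016, plus strand: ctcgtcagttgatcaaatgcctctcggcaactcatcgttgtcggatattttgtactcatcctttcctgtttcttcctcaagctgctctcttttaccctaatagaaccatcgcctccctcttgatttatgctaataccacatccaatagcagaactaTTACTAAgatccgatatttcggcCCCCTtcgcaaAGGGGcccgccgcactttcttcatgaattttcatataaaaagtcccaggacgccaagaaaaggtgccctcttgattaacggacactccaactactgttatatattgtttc
TRX2, chrVII:913228-913527, minus strand: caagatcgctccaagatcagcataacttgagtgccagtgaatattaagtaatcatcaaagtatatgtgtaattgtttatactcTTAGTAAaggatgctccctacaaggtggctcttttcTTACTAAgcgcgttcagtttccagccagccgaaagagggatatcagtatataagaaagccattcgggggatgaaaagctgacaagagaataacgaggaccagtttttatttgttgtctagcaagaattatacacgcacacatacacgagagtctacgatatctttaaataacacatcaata
TSA2, chrIV:1365663-1365962, minus strand: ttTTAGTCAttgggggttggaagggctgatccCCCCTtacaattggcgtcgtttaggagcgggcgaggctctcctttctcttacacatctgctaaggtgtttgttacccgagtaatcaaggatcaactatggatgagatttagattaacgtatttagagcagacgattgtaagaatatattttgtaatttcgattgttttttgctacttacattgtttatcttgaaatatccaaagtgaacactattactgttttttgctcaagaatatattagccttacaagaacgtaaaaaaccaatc

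AGGGG was found in 9 of the 10 windows, against 22.2% of 6007 windows of the same length before nuclear coding genes. TRX2 was the member without it. GRX2 alone held AGGGG more than once, with copies starting 121 and 110 bases upstream of the start codon. TTACTAA was found in 5 windows (SOD1, SOD2, GRX2, TRX2 and GPX2), against 7.84% of all windows, and TGACTAA in 2 (TSA2 and GPX1), against 3.70%. The pair of TTACTAA motifs of TRX2 began 217 and 181 bases upstream, and 0.433% of all windows held at least 2 of them. CTT1, whose promoter is known as a model of Msn2 and Msn4 control, had 1 AGGGG in this window, 133 bases upstream, and no Yap1 motif. Sequence beyond 300 bases upstream was not searched for any gene. These matches are descriptions of the reference sequence of S288C. The spores were of the SK1 background, and binding was not measured. A relation of the motifs to transcript levels or to the difference between replicates was not tested.

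Per kilobase of coding sequence, the scale used here to compare levels of different genes, SOD1 was the most abundant member in each of the 4 libraries. This length leaves out untranslated ends. SOD1 (YJR104C, chromosome X, 622550 to 623014) encodes the cytosolic copper-zinc superoxide dismutase. Its level was 3616 CPM per kb in a spores and 3964 CPM per kb in α spores of replicate 2, against 964 and 1022 in replicate 1, so the replicates did not overlap while the spore colors lay close together. Among 5904 coding genes with reads, SOD1 stood between the 97.7th and the 99.8th percentile. TSA1 (YML028W, chromosome XIII, 220138 to 220728), the main cytosolic peroxiredoxin, followed with a mean of 1082 CPM per kb. CTT1 (YGR088W, chromosome VII, 654634 to 656322), the cytosolic catalase T, averaged 1072 CPM per kb, with a far wider range, of 150 to 1947. The ranges of TSA1 and CTT1 overlapped, and their order differed between replicates, with CTT1 above TSA1 in both replicate 2 libraries and below it in both replicate 1 libraries.

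The middle of the order was held by TRX2 (YGR209C, chromosome VII, 912913 to 913227), a cytosolic thioredoxin, with a mean of 712 CPM per kb. SOD2 (YHR008C, chromosome VIII, 122889 to 123590), the manganese superoxide dismutase of the mitochondrial matrix, averaged 565 CPM per kb. The glutaredoxins GRX1 (YCL035C, chromosome III, 60841 to 61173) and GRX2 (YDR513W, chromosome IV, 1471017 to 1471448) averaged 539 and 366 CPM per kb. The ranges of these neighbours overlapped over the libraries. Within each library, however, TRX2 stood above SOD2, and both SOD2 and GRX1 stood above GRX2. GRX1 stood above SOD2 in both replicate 1 libraries and below it in both replicate 2 libraries. The lowest levels were those of the glutathione peroxidases GPX2 (YBR244W, chromosome II, 707528 to 708016) at 151 and GPX1 (YKL026C, chromosome XI, 389380 to 389883) at 136 CPM per kb, and of TSA2 (YDR453C, chromosome IV, 1365072 to 1365662), the lowly expressed paralog of TSA1, at 58.7 CPM per kb. The ranges of these 3 neighbours also overlapped over the libraries. The highest member exceeded the lowest by 101-fold in a spores and 61.2-fold in α spores of replicate 2, against 23.6-fold and 27.6-fold in replicate 1. The median percentile of the 10 genes was 97.6 and 97.0 in a and α spores of replicate 2, against 89.7 and 85.9 in replicate 1. All 10 genes have a single exon, and 0% of their 50-base words occur elsewhere in the reference, including those of the paralogs. GRX2 overlaps the neighbouring YDR512C by 47 bp, and how reads over that stretch or on either strand were counted is not given in the sources used here.

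**Figure D1:**
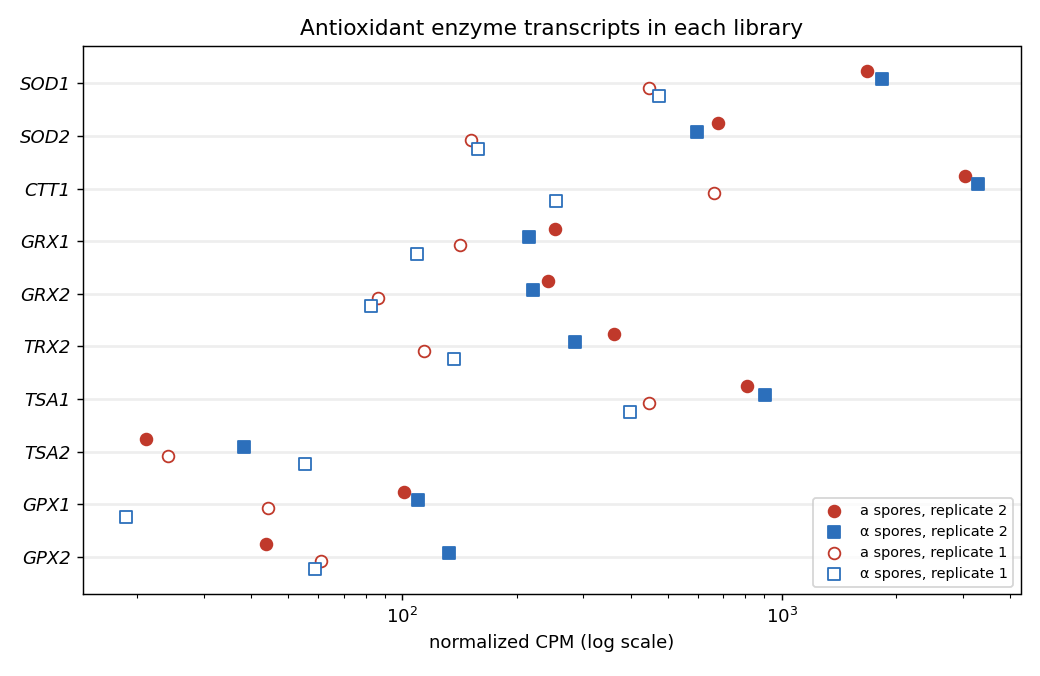
Normalized CPM of the 10 antioxidant genes (log axis) in the 4 libraries; red circles are a spores and blue squares α spores, filled for replicate 2 and open for replicate 1. SOD1 had 1681 and 1843 CPM in replicate 2, against 448 and 475 in replicate 1, and the open and filled symbols are mixed for TSA2 and GPX2.

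The comparison of replicate 2 with replicate 1 showed how far transcript levels differed between independent rounds of sporulation and sorting. Of the 10 genes, 8 were higher in replicate 2 at a false discovery rate (FDR, the Benjamini-Hochberg adjusted p over all genes tested) under 0.05 in edgeR's quasi-likelihood test, with spore color as a covariate. None was lower. Among all 6140 genes, 8.96% were called higher and 9.87% lower in replicate 2. The 10 genes were chosen with earlier results of these data known, and their excess over these shares was not tested. The median log2 fold change of the 10 genes was 1.41, against -0.02 over all genes tested. Both superoxide dismutases, the catalase, both glutaredoxins, the thioredoxin, TSA1 and GPX1 were called, while TSA2 and GPX2 were not. These 8 were higher in replicate 2 in both spore colors without overlap, as were 30.9% of all genes tested. The summed level of the 10 genes was 7225 CPM in a spores and 7634 CPM in α spores of replicate 2, against 2185 and 1746 CPM in replicate 1. For comparison, the summed level of the 6 late sporulation markers, most of which was SPS100, was 2883 and 3331 CPM in replicate 2, against 2219 and 2396 in replicate 1. None of the 6 was called, and the low ones differed in both directions. In a spores SPS4 had 22.3 CPM in replicate 2 and 0.222 in replicate 1, while SPR3 had 0.640 and 8.03 CPM. Of the 6 markers of dividing cells, HTB2, a histone H2B gene, was called lower in replicate 2 (77.6 and 76.5 CPM, against 234 and 229 in replicate 1; edgeR FDR = 0.00374). The other 5 were not called, and their log2 fold changes ranged from -0.63 for PIR1, a cell wall protein gene, to 0.61 for EGT2, a gene of daughter cell separation. The part of sequencing depth or of other cells in these differences was not tested.

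The superoxide dismutases differed between the replicates by about the same factor in both spore colors. SOD1 had 1681 CPM in a spores and 1843 CPM in α spores of replicate 2, against 448 and 475 CPM in replicate 1. Its log2 fold change was 1.93 ± 0.19 (SE; FDR = 4.15e-04, edgeR), or 3.82-fold, and the ratio was 3.75-fold within a spores and 3.88-fold within α spores. SOD2 had 680 and 596 CPM in replicate 2, against 152 and 158 CPM in replicate 1, a log2 fold change of 2.04 ± 0.21 (FDR = 4.91e-04, edgeR). Neither gene's replicates came close to overlapping. SOD1 made up 78.9% to 82.4% of the pair per coding length in each of the 4 libraries.

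CTT1 had the largest difference between replicates among the 10 genes. It had 3035 CPM in a spores and 3289 CPM in α spores of replicate 2, against 665 and 254 CPM in replicate 1. The replicate 2 libraries were close to each other, and the α library of replicate 1 was the lowest. The log2 fold change was 2.94 ± 0.34 (FDR = 7.76e-04, edgeR), with a ratio of 4.57-fold in a spores and 13.0-fold in α spores. Fitted with no color term, the log2 fold change was 2.24 without the α library of replicate 1 and 3.61 without the a library of replicate 1, and CTT1 was called in both. By rank per coding length CTT1 stood at 43 and 44 of 5904 genes in a and α spores of replicate 2, against 408 and 1193 in replicate 1. The genes most like CTT1 over the 4 libraries, by the root mean square difference of centred log2 CPM, were PAI3 (0.13), an inhibitor of vacuolar proteinase A, MSC1 (0.14) and TKL2 (0.15), a transketolase. PAI3 had 1871 and 2091 CPM in a and α spores of replicate 2, against 336 and 157 CPM in replicate 1.

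**Figure D2:**
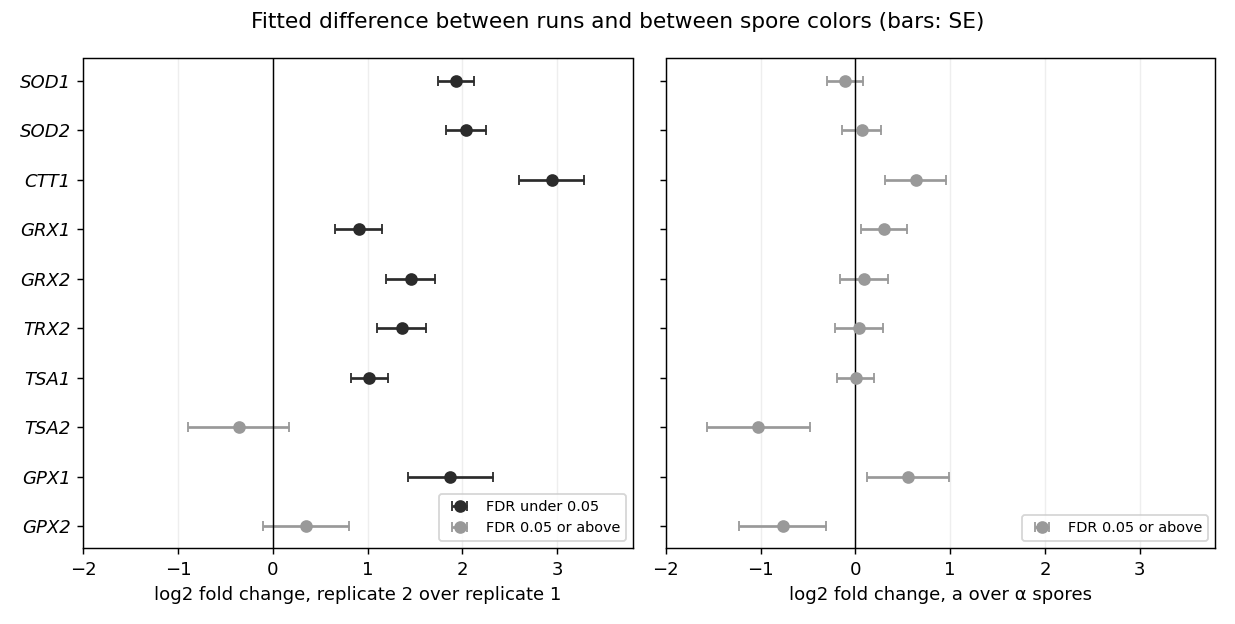
Log2 fold changes of the 10 genes with their standard errors from edgeR's quasi-likelihood test (4 libraries), on the left for replicate 2 over replicate 1 and on the right for a over α spores. On the left 8 genes pass an FDR of 0.05 (black) and TSA2 and GPX2 do not (grey), and on the right no gene passes.

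The peroxiredoxins differed in their behavior. TSA1 had 809 and 903 CPM in a and α spores of replicate 2, against 448 and 398 CPM in replicate 1, a log2 fold change of 1.02 ± 0.20 (FDR = 0.00831, edgeR). TSA2, a paralog that is inducible by oxidants, had 21.1 and 38.3 CPM in replicate 2, against 24.2 and 55.3 CPM in replicate 1. Its values in the 2 replicates overlapped, and its log2 fold change was -0.36 ± 0.54 (FDR = 0.705, edgeR). Without the α library of replicate 1, and with no color term, that value was 0.29, and TSA2 was not called under any setting of this comparison. TSA1 made up 97.5% of the pair per coding length in a spores and 95.9% in α spores of replicate 2, against 94.9% and 87.8% in replicate 1.

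The glutathione peroxidases also differed. GPX1 had 101 and 110 CPM in a and α spores of replicate 2, against 44.2 and 18.7 CPM in replicate 1, a log2 fold change of 1.87 ± 0.45 (FDR = 0.0205, edgeR). Without the α library of replicate 1 and the color term, GPX1 was not called (log2 fold change 1.25, FDR = 0.125), whereas without the a library of replicate 1 the value was 2.46 (FDR = 0.0115). GPX2 had 43.8 CPM in a spores and 133 CPM in α spores of replicate 2, against 61.2 and 58.7 CPM in replicate 1. The α library of replicate 2 was the highest and the a library of the same replicate the lowest, so the replicates overlapped, and the log2 fold change was 0.35 ± 0.46 (FDR = 0.665, edgeR). Without the a library of replicate 2 and the color term, GPX2 was called higher (1.14, FDR = 0.0348), and without the α library of replicate 2 its log2 fold change was -0.45 (FDR = 0.531). GPX1 made up 69.1% and 44.6% of the pair per coding length in a and α spores of replicate 2, against 41.2% and 23.6% in replicate 1.

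Thioredoxin and glutaredoxin transcripts were called with smaller differences than those of the superoxide dismutases and the catalase. TRX2 had 361 and 285 CPM in a and α spores of replicate 2, against 114 and 137 CPM in replicate 1, a log2 fold change of 1.36 ± 0.26 (FDR = 0.00752, edgeR). Its paralog TRX1, the other cytosolic thioredoxin, had 178 and 108 CPM in replicate 2, against 140 and 116 CPM in replicate 1, and was not called (log2 fold change 0.13 ± 0.27; FDR = 0.803, edgeR). TRX2 accordingly made up 66.8% and 72.3% of this pair per coding length in replicate 2, against 44.8% and 53.9% in replicate 1, without overlap of the replicates. GRX2 had 241 and 221 CPM in replicate 2, against 86.4 and 82.5 CPM in replicate 1, a log2 fold change of 1.45 ± 0.26 (FDR = 0.00550, edgeR). GRX1 had 252 and 215 CPM in replicate 2, against 142 and 109 CPM in replicate 1, the smallest called difference, at 0.91 ± 0.25 (FDR = 0.0361, edgeR). GRX1 was not called without the a library of replicate 1 (FDR = 0.0725), without the a library of replicate 2 (FDR = 0.0848) or without the α library of replicate 1 (FDR = 0.230), each fitted with no color term. GRX1 made up 57.5% and 55.8% of the glutaredoxin pair per coding length in replicate 2, against 68.0% and 63.2% in replicate 1.

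**Figure D3:**
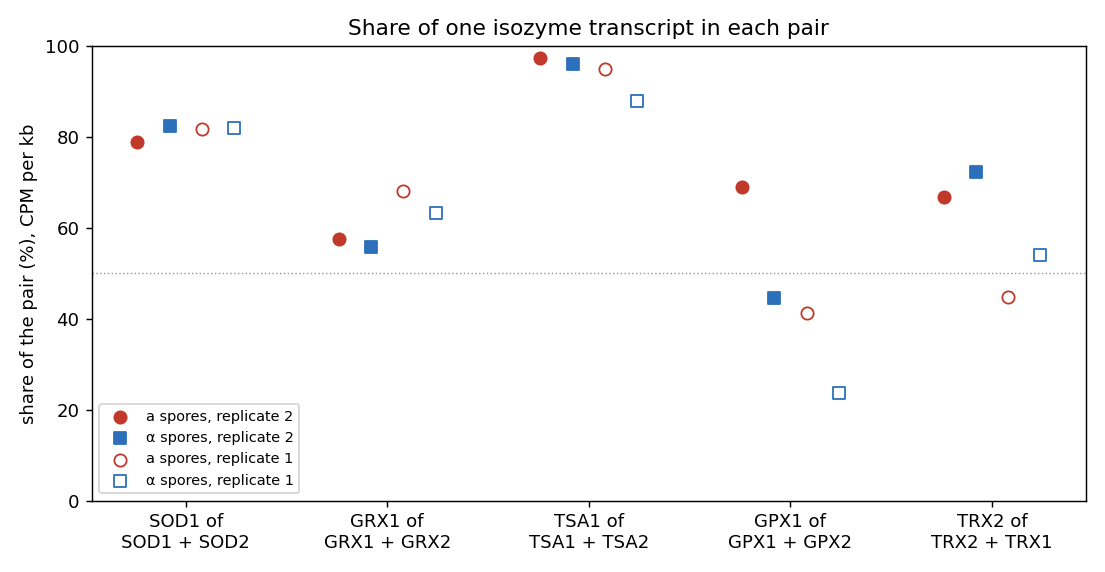
Share of the first gene in each isozyme pair, in percent of the summed CPM per kb, for each library (symbols as in the plot of CPM by gene). The SOD1 share lies between 78.9% and 82.4%, while the GPX1 share ranges from 23.6% to 69.1%.

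**Figure D4:**
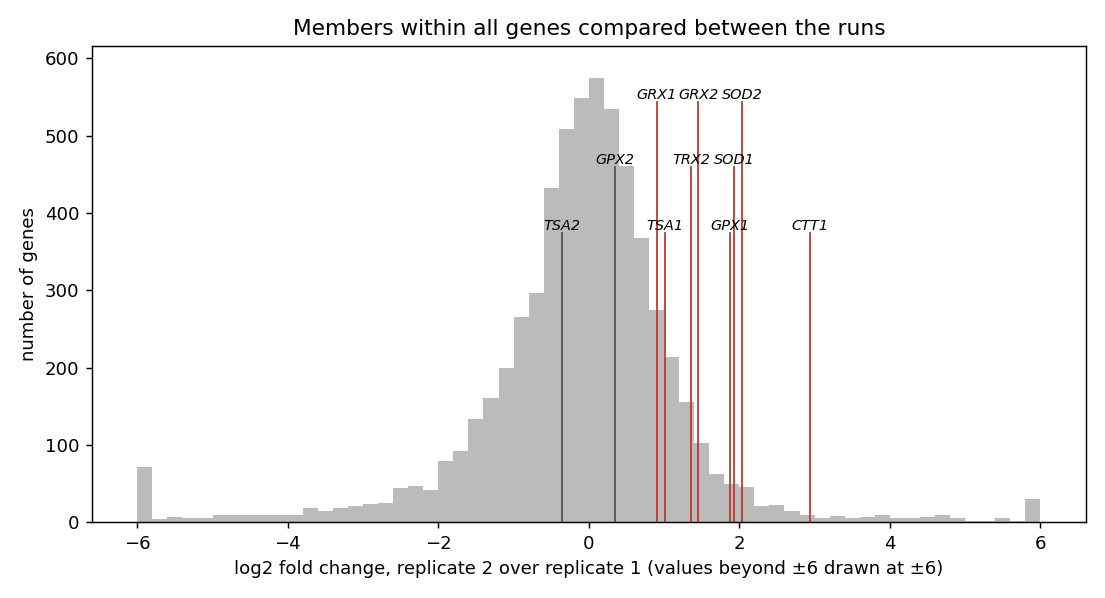
Histogram of the log2 fold change of replicate 2 over replicate 1 for 6140 genes, with the 10 antioxidant genes marked (red lines, FDR under 0.05; dark lines, not called) and values beyond ±6 drawn at ±6. The 8 called members lie between 0.91 (GRX1) and 2.94 (CTT1), and the median of all genes is -0.02.

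A wider list of 30 genes of the same pathways, also chosen with earlier results of these data known, was compared in the same fit. Of these, 10 were called higher in replicate 2 and none lower, where 8.96% of all genes were called higher and 9.87% lower, and the median log2 fold change was 0.45. Without the α library of replicate 1, and with no color term, 4 were called higher and none lower, and 623 of the 6343 genes then tested were called in either direction. AHP1, a further peroxiredoxin gene, had the smallest p, with 1304 and 1518 CPM in a and α spores of replicate 2, against 283 and 303 CPM in replicate 1 (log2 fold change 2.26 ± 0.20; FDR = 2.26e-04, edgeR). CTA1, the peroxisomal catalase A, had 2017 and 1942 CPM in replicate 2, against 672 and 513 CPM in replicate 1 (1.75 ± 0.20; FDR = 6.67e-04, edgeR). Both catalase genes of yeast were thus among the transcripts called. The other genes called, with their log2 fold changes, were GTT1 (1.73) and GTT2 (0.97), which encode glutathione transferases, GSH1 (1.38), for the first enzyme of glutathione synthesis, TRR2 (1.19), the mitochondrial thioredoxin reductase, HYR1 (1.12), the peroxide sensor that activates Yap1, MXR1, a methionine sulfoxide reductase with 129 and 140 CPM in replicate 2, against 67.7 and 66.4 CPM in replicate 1, YAP1 (0.76) itself, and ZWF1 (0.67), glucose-6-phosphate dehydrogenase, a source of NADPH. In the direction of lower levels in replicate 2, TRR1, the cytosolic thioredoxin reductase, had the smallest p, with a log2 fold change of -0.44 ± 0.29 (FDR = 0.350, edgeR). GLR1, glutathione reductase, had 0.17, and PRX1, the mitochondrial peroxiredoxin, had 0.45, and neither passed. Per kilobase, AHP1 averaged 1605 CPM, CTA1 831, PRX1 587, HYR1 458, TRX1 434, TRR1 177 and GLR1 133 over the 4 libraries. AHP1 was above TSA1 in both replicate 2 libraries (2456 and 2859 CPM per kb in a and α spores, against 1369 and 1529 for TSA1) and below it in both replicate 1 libraries (533 and 571, against 758 and 674 for TSA1).

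**Figure D5:**
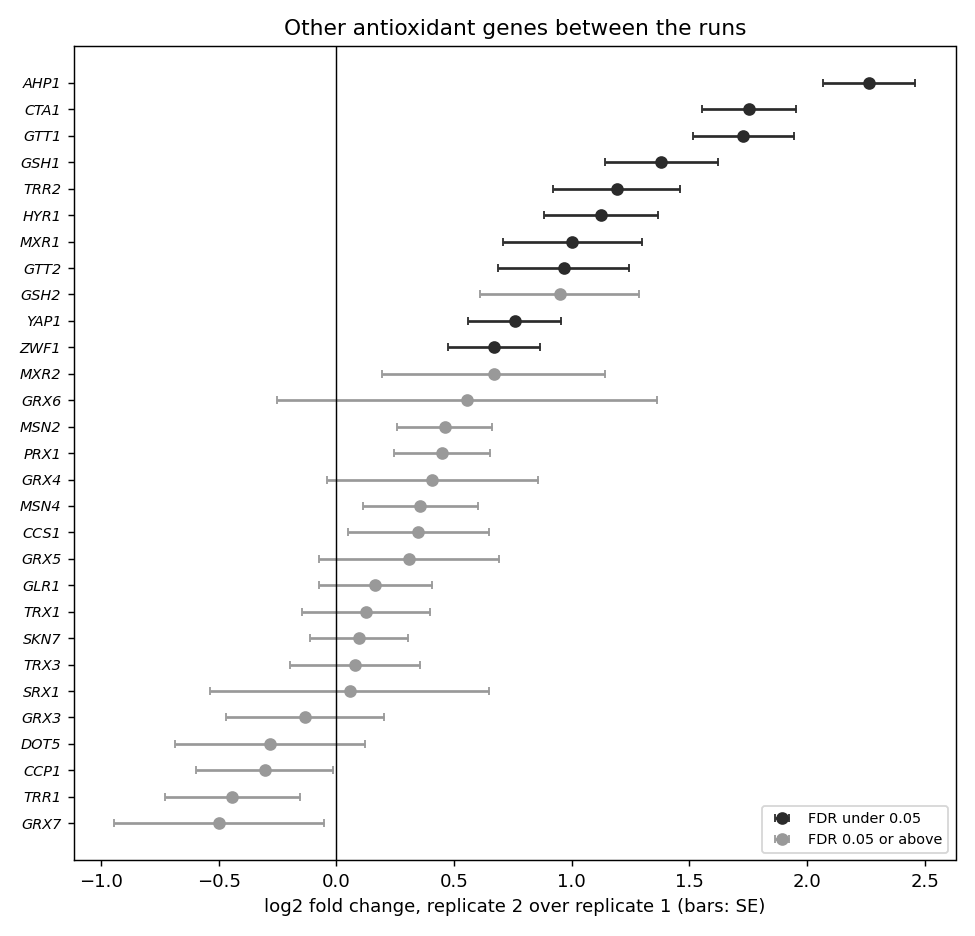
Log2 fold change of replicate 2 over replicate 1 with its standard error for 29 genes of the wider antioxidant list, ordered by value; GRX8, which had 0 reads in 1 library, is left out. Black points pass an FDR of 0.05 (10 genes, from 0.67 for ZWF1 to 2.26 for AHP1), and grey points do not.

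The comparison of a with α spores asked whether these transcripts were shared equally between spores of opposite mating type. None of the 10 genes was called in edgeR's quasi-likelihood test with the replicate number as a block, and none had an unadjusted p under 0.05. Of all genes 0.0163%, namely hph alone, were called. The sorting marker mCherry was missed, at 6.85 ± 1.59 on the log2 scale (unadjusted p = 0.00226, edgeR). It had 514 and 217 CPM in a spores of replicates 2 and 1, against 0 and 12.5 CPM in α spores. The test can thus miss a large difference, so the absence of calls does not establish equal sharing. The likelihood ratio test of edgeR also called none of the 10, and DESeq2 called 1, TSA2. The median log2 fold change of the 10 genes was 0.05, against 0.02 over all genes tested. The a and α values lay within 1.5-fold of each other for 8 of the 10 genes in replicate 2 and for 7 in replicate 1. Both replicates had the same sign of difference at 4 genes. In a spores the value was higher for GRX1 and GRX2 and lower for SOD1 and TSA2. At the other members the sign changed between replicates. Neither the count within 1.5-fold nor that of equal signs was made over all genes.

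SOD1 and GRX2 differed little between spore colors in either replicate. The fitted log2 ratio of a to α spores was -0.11 ± 0.19 for SOD1 and 0.10 ± 0.25 for GRX2 (SE; FDR = 1 for both, edgeR). For TSA1 it was 0.0057 ± 0.20. With 2 replicates, each gene has 1 residual degree of freedom, and the quasi-likelihood fit pools spread in part over genes. The standard errors therefore do not follow a gene's own spread alone. For SOD1 the SE was 0.19, against an SD of 0.034 between the log2 ratios of the replicates. These standard errors leave room for modest differences in either direction.

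TSA2 was the member whose a and α libraries did not overlap, with a spores lower, as was the case for 8.89% of all genes tested. It had 21.1 and 24.2 CPM in a spores, in replicates 2 and 1, against 38.3 and 55.3 CPM in α spores. On the log2 scale the difference was -1.03 ± 0.54 (unadjusted p = 0.0931, FDR = 1, edgeR), whereas in DESeq2 with the same block it was -1.05 with an FDR of 0.0496, where 222 genes were called in all. CTT1 had 3035 and 665 CPM in a spores, against 3289 and 254 CPM in α spores. Its fitted value, 0.64 ± 0.32 on the log2 scale (unadjusted p = 0.0825, edgeR), did not exceed the SD of 1.07 between the log2 ratios measured in each replicate. The same held for GPX1, with 0.56 ± 0.44 against a spread of 0.97, and for GPX2, with -0.77 ± 0.46 against a spread of 1.17. The log2 fold changes of the other members were 0.30 ± 0.25 for GRX1, 0.07 ± 0.21 for SOD2 and 0.04 ± 0.25 for TRX2.

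Of the wider list, none of the 30 genes was called between a and α spores, 2 had an unadjusted p under 0.05 (edgeR's quasi-likelihood test), and neither the likelihood ratio test nor DESeq2 called any. GRX8, a glutaredoxin, had the smallest p, with 52.3 and 11.2 CPM in a spores, in replicates 2 and 1, against 6.21 and 0 CPM in α spores (unadjusted p = 0.0238, FDR = 1, edgeR). It was the gene of the list called when the α library of replicate 2 was left out and the block dropped, which leaves α spores represented by the library at 0. GSH2, the glutathione synthetase gene, had 135 and 94.1 CPM in a spores, against 106 and 40.9 CPM in α spores (unadjusted p = 0.0496, edgeR). CCS1, the copper chaperone of Sod1, had the smallest p among genes lower in a spores, at -0.32 ± 0.30 on the log2 scale (unadjusted p = 0.315, edgeR). It had 113 and 117 CPM in a spores, in replicates 2 and 1, against 186 and 111 CPM in α spores. Its value in a spores was thus lower in replicate 2 only.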

How the data were processed

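mRNA of sorted spores was sequenced in 4 libraries, read for 10 antioxidant genes. Alignment by the authors used STAR 2.7.3a and the S288C genome (R64-1-1) extended by mCherry and hph, and quantification used FeatureCounts. The table deposited by the authors holds estimated counts without normalization. Values above 0 were fractional in 61.7% to 69.3% of features per library, and all were rounded to whole numbers for the count models. Strand, overlap and multi-mapping settings are not given in the sources used here.

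Genes were filtered with filterByExpr and normalized by TMM, and a model with spore color and replicate number was fitted in R 4.3.3 with edgeR 4.0.16. The quasi-likelihood test was used with an FDR of 0.05 over 6140 genes, and each SE is the absolute log2 fold change over the square root of F. DESeq2 1.42.0, edgeR's likelihood ratio test, other normalizations and filters, no block, and leaving out each library were alternatives. The code was tested on simulated data. The replicate numbers pair libraries because sporulation and sorting were repeated, per the study's text, and libraries with the same number deviated together from their color means (r = 0.407 over 6140 genes). With 2 replicates a color, p-values rest on the spread between these libraries only, which the quasi-likelihood fit pools in part over genes. Between replicates, a constant difference between spore colors is removed by the color term. What is left is how far the replicate difference varied between colors, since each run was a single round of sporulation and sorting.

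CPM were computed from unrounded counts over TMM-scaled totals, and CPM per kb used the coding length. Coordinates and sequences are from RefSeq's R64 genome and annotation (SGD R64-5-1), which matched 6047 of 7132 features. Percentiles are among 5904 coding genes with reads. Tables and figures were made in Python 3.11.15. The named genes were the 10 members, genes of the wider list that passed the FDR or had the smallest p in each direction, 7 partner genes for their levels, and 3 genes most like CTT1. The members and lists were chosen with earlier results of these data known. GSH2, MSN2, MSN4, SKN7 and the markers given by name were named after their values were seen.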

Additional observations from a re-analysis of the deposited data

Results flagged for a closer look

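GPX2 differed between replicates in opposite directions in the 2 spore colors, with a log2 ratio of replicate 2 over replicate 1 of -0.48 in a spores and 1.18 in α spores. The a-to-α log2 ratio of GPX2 stood at -1.60 in replicate 2 and 0.060 in replicate 1. This ratio also changed sign between replicates for 5 other members. For CTT1 it was -0.12 in replicate 2 and 1.39 in replicate 1, and for GPX1 it was -0.12 in replicate 2 and 1.24 in replicate 1. In both genes the α library of replicate 1 was the lowest of the 4. For SOD2 the ratio was 0.19 in replicate 2 and -0.056 in replicate 1. For TRX2 it was 0.34 and -0.26, and for TSA1 it was -0.16 and 0.17, in replicates 2 and 1. These differences were not tested, since 1 library per color and replicate leaves no spread to test an interaction against.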

How the results depend on the processing

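Between replicates, the 8 members called were also called under each of the 8 alternatives fitted to all 4 libraries, and their directions did not change. Leaving out each library in turn, with no color term, called 6 to 8 members, 4 to 10 genes of the wider list and 623 to 1340 of all genes, against 1156 with all libraries. CTT1 then ranged from 2.24 to 3.61, GPX1 from 1.25 to 2.46, GPX2 from -0.45 to 1.14 and TSA2 from -0.92 to 0.29 on the log2 scale. DESeq2 called 2706 genes, and the likelihood ratio test 1604. Without the color term 1266 genes were called. No scaling moved the median log2 fold change of all genes by over 0.1.

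Between spore colors, 222 genes were called by DESeq2, of which TSA2 was the 1 member, 4 with library totals in place of TMM, and 0 without the replicate block, against 1. Without the block no member was called either, and TSA1 then stood at -0.050, as against -0.014 with DESeq2 and -0.014 with RLE normalization, a reversal of its small value. Leaving out each library in turn without the block called 0 to 9 genes, no member and 0 to 1 genes of the wider list. These fits are unbalanced for replicate number. The fitted a-to-α log2 ratio then ranged from -1.37 to 1.16 for SOD1, -1.31 to 1.40 for SOD2, -1.41 to 2.87 for CTT1, -0.19 to 0.85 for GRX1, -0.81 to 0.99 for GRX2, -0.88 to 0.80 for TRX2, -0.54 to 0.66 for TSA1 and -0.61 to 1.96 for GPX1. A library left alone in its group was assumed to vary like the others. The cause of these changes was not tested.

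Without division by coding length the mean share of SOD1 in its pair was 74.1%, against 81.2%, and that of GRX1 was 54.9%, against 61.1%. The median percentile of the 10 genes, averaged over libraries, was then 75.7, against 92.6. On that scale CTT1 stood above SOD1 in every library but the α library of replicate 1 (254 against 475 CPM). The depth did not limit detection of any member, and 2 replicates limit the precision.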

Other observations

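Transcripts of the regulators of the antioxidant response were present in every library. YAP1 had 632 and 549 CPM in a and α spores of replicate 2, against 367 and 331 CPM in replicate 1. MSN2, one of the paired general stress activators, had 543 and 464 CPM in replicate 2, against 381 and 349 CPM in replicate 1, without overlap but with an FDR of 0.157 in edgeR's quasi-likelihood test. MSN4 had 261 and 208 CPM in replicate 2, against 179 and 184 CPM in replicate 1 (FDR = 0.374, edgeR). SKN7, which acts with Yap1 on some peroxide-induced genes, had 453 and 450 CPM in replicate 2, against 378 and 472 CPM in replicate 1, and the replicates overlapped (FDR = 0.803, edgeR). MSC1 and TKL2, the other genes most like CTT1 over the 4 libraries, had 5292 and 5683 CPM and 932 and 1034 CPM in a and α spores of replicate 2, against 1007 and 508 CPM and 196 and 61.3 CPM in replicate 1.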
